A study of Mus musculus with 19 samples.

Results

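The genes described here encode the proteins of the cytosolic ribosome, the particle on which neurons make nearly all of their proteins. They were found by name: every gene whose array symbol reads Rpl or Rps followed by a digit was taken, without the Rps6 kinases and numbered pseudogenes, and only where a probe set names that gene alone. This gave 47 of the 18193 genes measured, on 102 of 45101 probe sets, and each gene was read from its brightest probe set by the mean over all arrays. Of the 47 genes, 20 encode standard proteins of the large subunit and 20 of the small subunit, and these 40 are called the core genes below. Another 6 are paralogs of a standard gene (Rpl3l, Rpl7l1, Rpl22l1, Rpl39l, Rps4l and Rps27l), and Rps19bp1 encodes a protein that binds RPS19 and is not a ribosomal protein. A further 30 genes of the family are named only by probe sets that list several symbols, Rpl5 and Rpl24 among them, and are not members.

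The study used 19 Affymetrix 430 2.0 arrays, each hybridised with RNA of one type of projection neuron purified from the cortex of C57BL/6 mice, with no other genotype or treatment. Callosal projection neurons (CPN), which send axons to the opposite hemisphere, and corticospinal motor neurons (CSMN), which send axons to the spinal cord, were collected at embryonic day 18 (E18) and postnatal days 3, 6 and 14 (P3, P6 and P14). Corticotectal projection neurons (CTPN), which send axons to the midbrain tectum, were collected at P14. Green fluorescent microspheres taken up by the axons labelled the cells, in sensorimotor cortex for CPN and CSMN and in visual cortex for CTPN per the labels, and labelled cells were sorted by fluorescence, so a group holds the neurons that the label reached. There were 2 arrays in a group and 3 for CSMN of P3, and the series text calls every replicate an independent collection.

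A ribosome needs its structural proteins in nearly equal amounts, and cells adjust that supply to their growth. The messenger RNAs of ribosomal proteins are among the most abundant in a cell, and most of them begin with a pyrimidine tract through which mTOR signalling governs their translation, so that their RNA level and their protein output can part. Free proteins such as RPL5 and RPL11 also bind MDM2 and thereby link ribosome assembly to p53. In the cortex, dividing progenitors carry a large load of ribosomes, and young neurons extend long axons before their synapses mature.

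Start sites of these genes were searched for 3 short motifs, and 4 windows are shown because the genes recur in the results below. Promoter windows from RefSeq (GRCm38.p6) matched 41 of the 47 genes and 35 of the 40 core genes. The letters CTTTC, a short pyrimidine run, were searched between bases -20 and 19 around the start. They were present on the strand that reads like the RNA in 10 of 35 core genes (28.6%), against 6.44% of 27025 genes. On either strand they were present in 34.3% against 11.8%. The letters CCGGAAG, the core recognised by ETS-type factors, were present on either strand between bases -150 and 49 in 15 of 35 (42.9%), against 8.53% of all genes with a window and 13% of those on the array. The letters AAGATGG, part of the YY1 motif, were present on either strand between bases -50 and 49 in 3 of 35 (8.57%) against 3.07%. Each motif was thus in a minority of the core genes, and no test of these shares was run. None of the 3 motifs contains another. In the sequences, each of 80 bases with 60 before the start and 20 from it, capitals mark the motif. Rpl13a and Rpl12 carry the pyrimidine run just after the start, and Rpl37 and Rps7 carry the ETS core just before it, Rps7 on the opposite strand.
Rpl13a, chr7:45128726-45128805, minus strand: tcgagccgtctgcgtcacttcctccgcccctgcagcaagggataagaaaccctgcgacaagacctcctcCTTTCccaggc
Rpl12, chr2:32961652-32961731, plus strand: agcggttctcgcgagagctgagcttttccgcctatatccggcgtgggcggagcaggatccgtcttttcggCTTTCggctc
Rpl37, chr15:5116553-5116632, plus strand: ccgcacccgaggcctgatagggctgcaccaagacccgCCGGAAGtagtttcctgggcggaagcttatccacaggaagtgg
Rps7, chr12:28635934-28636013, minus strand: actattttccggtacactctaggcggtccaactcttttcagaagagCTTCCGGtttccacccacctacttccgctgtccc
These matches describe letters only, and binding was not measured. The core genes are spread over 15 chromosomes, with at most 6 on one and 2 on X.

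The arrays were compared before the genes. Deposited values ran from 3.17 to 14.4 on the log2 scale, array medians from 6.42 to 6.62, and correlations between arrays of one group from 0.904 to 0.996. The replicate 2 arrays of CSMN at E18 and at P14 had the narrowest spread of values (75th percentiles 7.87 and 7.85, against 7.93 to 8.26 elsewhere), and the latter had the steepest fall of signal from the 3′ to the 5′ Gapdh probe set (3.08, against 1.39 to 2.78 elsewhere). The labelled types were checked by marker genes: the median of 3 corticospinal markers was 10.4 to 12.5 in CSMN and CTPN arrays and 7.19 to 9.41 in CPN arrays, and that of 4 callosal markers was 9.20 to 10.5 in CPN arrays and 5.71 to 8.72 in the others. Markers of excitatory neurons lay above the array medians for 5 to 7 of 7 genes in every group. The CPN arrays of E18 also carried RNA of dividing and progenitor cells: the median of 13 cell cycle genes was 9.42 and 9.66 there against 6.21 to 7.46 on the other 17 arrays, and that of 11 cortical progenitor genes was 10.8 and 11.4 against 5.80 to 8.05. Of these genes, 12 of 13 and 10 of 11 lay above the array medians there, and the log2 of their summed levels was 13.7 to 14.0 and 15.2 to 15.4, against at most 11.8 and 13.1 in the other groups. Astrocyte RNA was highest there too: the median of 6 marker genes was 9.86 and 10.3 on the CPN arrays of E18, with 6 of 6 above the array medians, against 6.98 to 8.81 on the others. The median of 7 microglial genes was uneven within some groups. It was 7.82 and 9.54 in CPN at E18, 7.66 and 9.46 in CSMN at P6 and 7.10 and 9.73 in CSMN at P14, against at most 8.09 elsewhere. Of 3 erythroid genes, 0 lay above the array medians in any group. In such bulk RNA, fewer cells of a type and less RNA per cell cannot be told apart.

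The median core gene stood between percentiles 96.2 and 99.7 of all genes on an array, and callosal neurons at E18 held the highest level. The median over the 40 core genes was 12.91 and 12.92 in the replicates of CPN at E18, 12.56 and 12.14 at P3, and 11.75 and 11.85 at P6; the P14 replicates had 12.12 and 11.73. In CSMN it was 12.53 and 11.70 at E18, 12.51, 12.19 and 12.32 at P3, 11.89 and 11.87 at P6, then 11.75 and 11.42 at P14. In CTPN at P14 it was 11.90 and 11.37. Both CPN arrays of E18 were above all 17 others, and the arrays of P6 and P14 overlapped across the 3 types. The pair of CSMN arrays of E18 lay farther apart than the arrays of any other group. Of 40 core genes, 35 had their highest group mean in CPN at E18, and 24 had their lowest in CSMN at P14, 9 in CTPN at P14 and 6 in CPN at P6. A total of 37 core genes exceeded the highest array median, 6.62, on every array, and Rps16, at 4.44 to 5.90, never did.

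**Figure D1:**
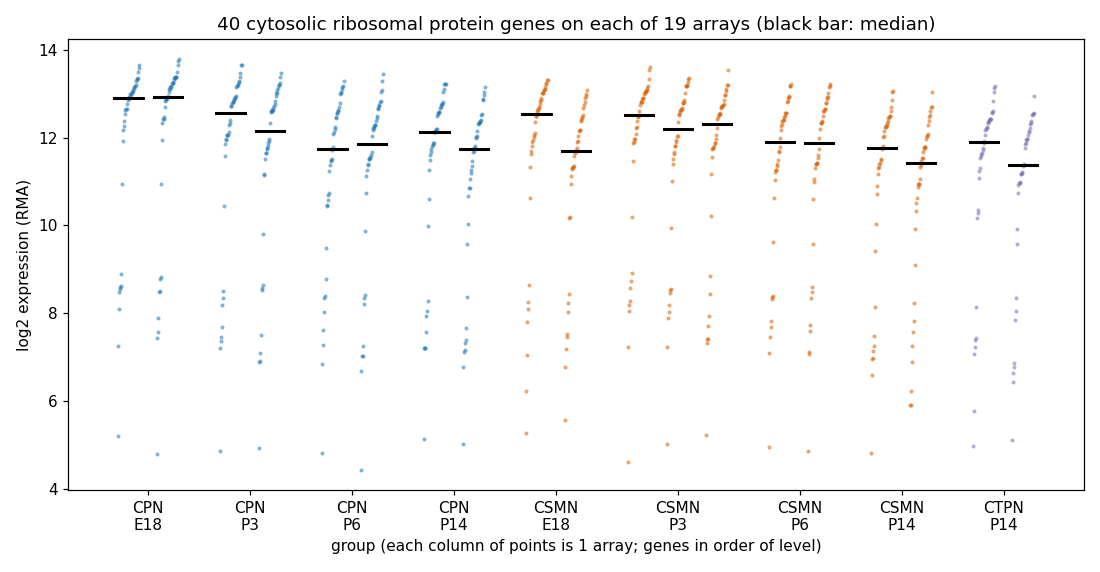
The 40 core genes on each of the 19 arrays. The vertical axis is log2 expression, each column of points is 1 array, points are genes in order of level and the black bar is their median. The bars of the 2 CPN arrays of E18, at 12.91 and 12.92, stand above all others, and the lowest bars, at 11.37 and 11.42, belong to P14.

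The groups were then followed from stage to stage. In CPN, the median difference over the 40 core genes was -0.37 from E18 to P3, with 39 of 40 below 0, -0.38 from P3 to P6, with 38 below 0, and -0.05 from P6 to P14, with 22 below 0. In CSMN it was 0.18 from E18 to P3, with 30 of 40 above 0, then -0.27 from P3 to P6, with 39 below 0, and -0.46 from P6 to P14, with 35 below 0. The CPN level was thus lower at each of the first steps and near level afterwards, and most of the CSMN difference lay after P3. The sign of the first CSMN step depended on the scaling of the arrays: its median was -0.13 after quantile normalization and -0.30 after cyclic loess, while the other 5 steps kept their sign under both. The median over all 18193 genes was 0.03 for P14 minus E18 in CPN and -0.004 in CSMN.

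**Figure D2:**
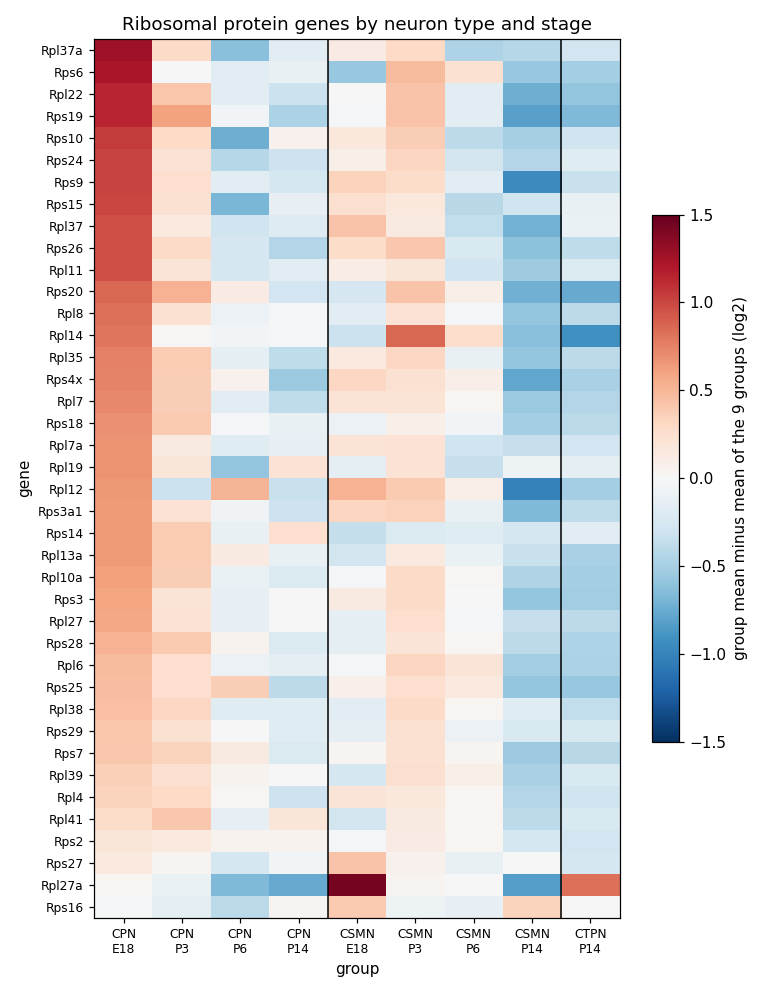
Group means of the 40 core genes (rows) in the 9 groups (columns), as the log2 difference from the mean of the 9 groups. The CPN E18 column is the highest for 35 of 40 genes, the P14 columns of CSMN and CTPN are the lowest for 24 and 9, and Rps16 and Rpl27a at the bottom do not follow the other genes.

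In callosal neurons, ribosomal protein RNA was lower at P14 than at E18. By limma, with p-values adjusted over all genes by Benjamini-Hochberg and a threshold of 0.05, 22 of the 47 genes fell and 0 rose, where 8.98% of all genes tested fell. The 25 others did not pass. The median difference over the core genes was -0.83 on the log2 scale, or 1.77-fold lower, and both subunits took part: 9 of 20 large subunit genes fell, with a median of -0.81 over the 20, and 11 of 20 small subunit genes fell, with a median of -0.90. Every P14 array was below every E18 array for 41 of the 47 genes, against 25.9% of all genes. The same E18 arrays carried the cell cycle and progenitor RNA: 12 of 13 cell cycle genes and 9 of 11 progenitor genes fell between these stages, with medians of -2.52 and -4.80, 3 of 6 astrocyte genes fell, with a median of -0.83, and 2 of 7 microglial genes fell, with a median of -1.45. Their part in the ribosomal difference was not tested. Without replicate 2 of CPN at E18, 12 of the 47 genes passed, and without replicate 2 of CPN at P14, 5 passed.

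Among small subunit genes the largest difference was in Rps19, whose mutation in people causes Diamond-Blackfan anaemia. It was measured at 11.92 and 11.94 in CPN at E18, 11.59 and 11.18 at P3, 10.74 in both P6 arrays, and 10.59 and 10.03 at P14. No array of a later stage reached the E18 pair, and the P14 pair lay below every P6 array. It fell by 1.62 ± 0.31 (SE, n = 2 and 2 arrays) on the log2 scale, or 3.07-fold, with an adjusted p of 0.00160 by limma. Rps4x, an X-linked protein of the small subunit surface, was measured at 13.50 and 13.65 at E18, 13.28 and 13.14 at P3, 13.05 and 12.74 at P6, then 12.53 and 12.03 at P14, so that its arrays stood in the order of age with no overlap. It fell by 1.30 ± 0.22, with an adjusted p of 0.000612, the smallest of the 47. Rps6, the target of the S6 kinases, was read from a dim probe set, at 8.89 and 8.52 at E18 and 7.58 and 7.16 at P14, and fell by 1.33 ± 0.28 with an adjusted p of 0.00347. A much brighter probe set that names Rps6 beside a pseudogene (mean 13.19, against 7.51) differed by -0.40 and did not pass, with an adjusted p of 0.216 by limma. The call of Rps6 therefore rests on the dim probe set. Rps20 fell by 1.15 ± 0.25 with an adjusted p of 0.00341 on a probe set marked for cross-hybridisation, and its difference was 0.12 when such probe sets were left out. Rps27 (-0.18) did not pass.

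Among large subunit genes the largest difference was in Rpl22, an RNA-binding protein that is dispensable for ribosome function. Its values were 12.38 and 12.91 in CPN at E18, 12.06 and 11.76 at P3, 11.24 and 11.41 at P6, then 11.49 and 10.86 at P14. The E18 pair stood above the rest, while the P6 and P14 arrays overlapped. It fell by 1.47 ± 0.26, or 2.76-fold, with an adjusted p of 0.000920. Rpl37a, a zinc-binding protein, was at 12.85 and 12.90 at E18 and 11.68 and 11.18 at P14, and fell by 1.44 ± 0.36 with an adjusted p of 0.0104. Rpl11, one of the MDM2-binding proteins, was at 12.65 and 12.69 at E18 and 11.83 and 11.27 at P14 and fell by 1.12 ± 0.23 with an adjusted p of 0.00268. Rpl10a, which is often tagged to pull down the ribosomes of one cell type, was 12.91 and 12.94 at E18 and 12.20 and 12.02 at P14, a difference of -0.82 ± 0.28 that did not pass, with an adjusted p of 0.0581. Rpl41, which encodes the smallest ribosomal protein, was at 13.21 and 13.24 at E18 and 13.22 and 13.05 at P14, with overlapping arrays and a difference of -0.09; it was named after its values were seen. Of the 20 core genes with a mean level of at least 12 the median difference was -0.68, and of the 10 between 11 and 12 it was -1.20. Of the 9 between the highest array median and 11 it was -0.85, and the 1 gene below that median differed by 0.07.

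Corticospinal neurons showed fewer calls in the same direction. By limma, 7 of the 47 genes fell from E18 to P14 and 0 rose, where 5.85% of all genes fell, and 40 did not pass. The median difference over the core genes was -0.54, or 1.45-fold lower, with 38 of 40 below 0, and every P14 array was below every E18 array for 20 of 47 genes, against 19% of all genes. Of 13 cell cycle genes 0 fell and 1 rose, and of 11 progenitor genes 2 fell and 1 rose. The median of 7 microglial genes was 6.50 to 6.88 in CSMN at E18 and 7.10 to 9.73 at P14. That of 6 astrocyte genes was 6.98 to 7.33 and 7.38 to 7.39, with log2 summed levels of 9.57 to 9.72 and 11.09 to 11.25. The part of these lists was not tested. The CSMN result turned on which E18 array was kept: the median over the 47 genes was -0.47 with both, -0.15 without replicate 1 and -0.79 without replicate 2, and 13 genes passed without replicate 2 of E18 or without replicate 1 of P14. Between 22 (quantile) and 23 (cyclic loess) genes passed under other scalings, and 0 passed with array weights or with the groups compared fitted alone.

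The genes that fell in CSMN were measured as follows. Rps9, a protein of the small subunit body, was at 11.95 and 11.68 at E18, 11.89, 11.51 and 11.88 at P3, 11.25 and 11.39 at P6, then 10.72 and 10.34 at P14, and fell by 1.29 ± 0.27 with an adjusted p of 0.00511. Rps4x was at 13.22 and 13.07 at E18 and 12.34 and 11.78 at P14 and fell by 1.09 ± 0.22 with an adjusted p of 0.00404. In both genes the P14 arrays were below all other CSMN arrays. Rpl37, a zinc-binding protein, was at 10.63 and 10.18 at E18 and 9.42 and 9.10 at P14 and fell by 1.14 ± 0.27 with an adjusted p of 0.0104. Rpl12, a protein of the stalk base where elongation factors bind, had the largest called difference, -1.54 ± 0.43 with an adjusted p of 0.0265, but its arrays were dim and uneven, at 8.24 and 8.02 at E18 and 7.26 and 5.92 at P14. A much brighter probe set that lists Rpl12 with other symbols (mean 12.28, against 7.63) differed by -0.47 and did not pass, with an adjusted p of 0.213 by limma. Rpl7, Rps3a1 and Rpl39l completed the 7. Rpl37, Rpl7, Rps3a1, Rps4x and Rps9 fell in both neuron types, 5 of the 22 called in CPN and 5 of the 7 called in CSMN. The types do not share arrays, but a single model gave each gene the same error estimate in both. The calls in the types are therefore not independent, and their overlap was not tested. Rpl27a, named after its values were seen, had the lowest CSMN difference of all 47, -2.26 ± 0.80, and did not pass (adjusted p of 0.0701): its E18 arrays read 11.62 and 8.22.

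**Figure D3:**
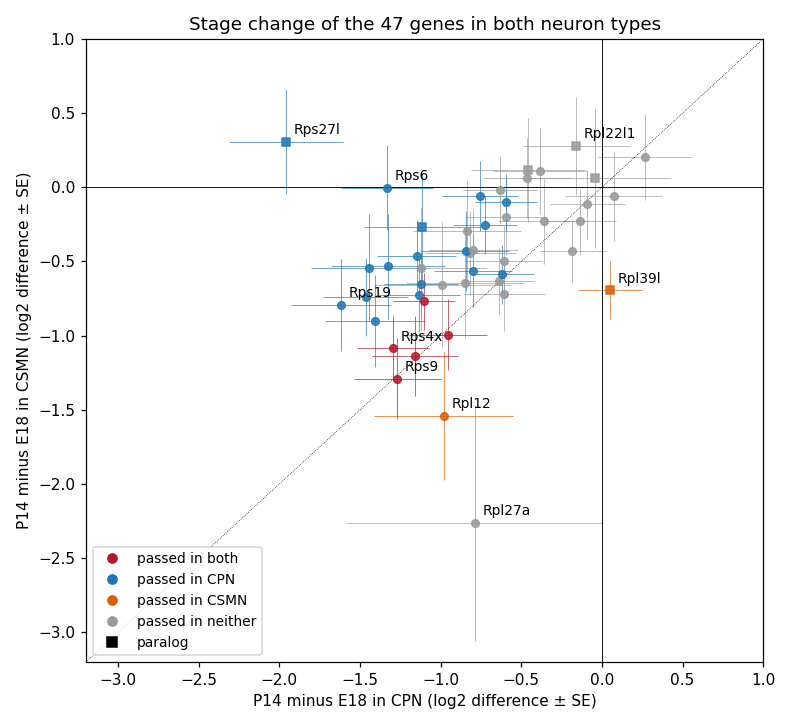
P14 minus E18 for the 47 genes, CPN on the horizontal and CSMN on the vertical axis, as log2 differences with the standard error of the model as bars; colour gives the types in which a gene passed and squares are paralogs. Most genes lie left of 0 and below 0, and Rps27l stands alone at -1.96 and 0.31.

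The difference between the types in this change was tested directly. The change was more negative in CPN for 36 of the 47 genes, with a median difference of 0.38, but only Rps27l passed, where 5.18% of all genes passed in either direction. At an unadjusted p under 0.05 limma gave 3 genes, and 4 passed without replicate 1 of CSMN at E18. The next gene, Rps6, read from its dim probe set, differed by 1.33 ± 0.40 with an adjusted p of 0.0718 by limma. For the other 46 genes, a larger fall in CPN than in CSMN was therefore not detectable with these arrays.

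From P3 to P14, with the E18 arrays left out of the fit, 3 genes fell in CPN (Rps19, Rps4x and Rpl7), where 3.45% of all genes fell, and 19 fell in CSMN, where 8.16% of all genes fell; 0 rose in either. These counts turned on 1 array: without replicate 2 of CSMN at P14, an alternative chosen after seeing the data, 6 fell in CPN and 5 in CSMN. The shares of all genes called without that array are not given here, so the moved counts need not be particular to the members. The median over the core genes was -0.44 in CPN, with 38 of 40 below 0, and -0.77 in CSMN, with 39 below 0. The latter was -0.56 without that array, with 40 below 0. The largest called differences in CSMN were in Rpl14 (-1.48 ± 0.31), a large subunit protein, Rpl12 (-1.41 ± 0.40), Rps19 (-1.25 ± 0.28) and Rps9 (-1.23 ± 0.25), with adjusted p from 0.00504 to 0.0302 by limma; Rpl14 and Rpl12 are read from dim probe sets. The P14 arrays of CSMN were below all 3 P3 arrays for 37 of 47 genes, against 18.5% of all genes. The difference between the types in this later change passed for 0 of 47 genes by limma, where 0.115% of all genes passed, with 4 at an unadjusted p under 0.05, and its median was -0.29. The cell cycle list was 7.33 to 7.46 in CPN at P3 and 6.21 to 6.36 at P14. In CSMN it was 6.39 to 7.03 and 6.74 to 6.87. The progenitor list was 7.97 and 7.98 in CPN at P3, 6.35 to 7.52 in CSMN at P3 and 6.34 to 6.70 in both types at P14. In CPN, 5 of 11 progenitor genes (median -1.13) and 2 of 13 cell cycle genes (median -0.235) fell from P3 to P14. In CSMN, 2 and 0 fell, with medians of -0.45 and 0.002. Their part was not tested. The list of 7 microglial genes was 6.83 to 7.13 in CSMN at P3 and 7.10 to 9.73 at P14. Its median difference in CSMN was 0.87 with both P14 arrays and 1.75 without replicate 2, so the higher level was on replicate 1. Replicate 2 of CSMN at P14 is the array with the narrowest spread and the steepest Gapdh fall. The part of microglial RNA was not tested.

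Averaged over both types, single steps gave few calls. From E18 to P3, 0 of 47 genes passed by limma, where 13.1% of all genes did, with 5 lower at an unadjusted p under 0.05; 14 passed after cyclic loess and 5 after quantile normalization. From P3 to P6, 0 passed, where 0.066% of all genes did. Of the 47 genes, 44 were below 0 and 18 had an unadjusted p under 0.05. The shares of all genes below 0 or under that unadjusted p are not given here. These counts need therefore not be particular to the members. From P6 to P14, 4 of 47 fell, a share near the 7.36% of all genes that fell. These were Rpl12 (-0.99, from a dim probe set), Rps4x (-0.74), Rps20 (-0.61) and Rps7 (-0.47), with adjusted p from 0.00547 upward by limma. Rps7 is a protein needed for small subunit assembly. Without single arrays 1 to 10 genes passed, the 10 without replicate 1 of CSMN at P14, and 0 passed with the groups compared fitted alone.

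At E18 the CSMN and CPN arrays differed. By limma, 12 of the 47 genes were lower in CSMN than in CPN and 0 were higher, where 8.94% of all genes were lower, and the median over the core genes was -0.63. Every CSMN array was below every CPN array for 36 of 47 genes, against 23.2% of all genes. Rps6 was at 7.05 and 6.78 in CSMN against 8.89 and 8.52 in CPN, a difference of -1.79 ± 0.28 with an adjusted p of 0.000708. These Rps6 values are from its dim probe set. The much brighter probe set that names Rps6 beside a pseudogene (mean 13.19, against 7.51) differed by -0.57 and did not pass, with an adjusted p of 0.0739 by limma. Rps19 was at 11.34 and 10.19 against 11.92 and 11.94, a difference of -1.16 ± 0.31 with an adjusted p of 0.0242, and its CSMN arrays lay far apart, both below CPN. Rps27l and Rpl7l1, described with the paralogs, had the other largest differences, and the remaining 8 lay between -1.14 (Rpl22) and -0.66. This comparison uses the same CPN arrays of E18 as the stage comparison, and 10 of the 12 genes also fell with age in CPN. Between these arrays, 12 of 13 cell cycle genes (median -3.06), 9 of 11 progenitor genes (median -4.68), 4 of 6 astrocyte genes (median -3.34) and 3 of 7 microglial genes (median -1.88) were lower in CSMN. Their part in the difference was not tested. Without either CPN array of E18 or without replicate 2 of CSMN at E18, 4 of the 47 genes passed, and without replicate 1 of CSMN at E18, 25 passed. With array weights, or with these groups fitted alone, 2 passed.

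**Figure D4:**
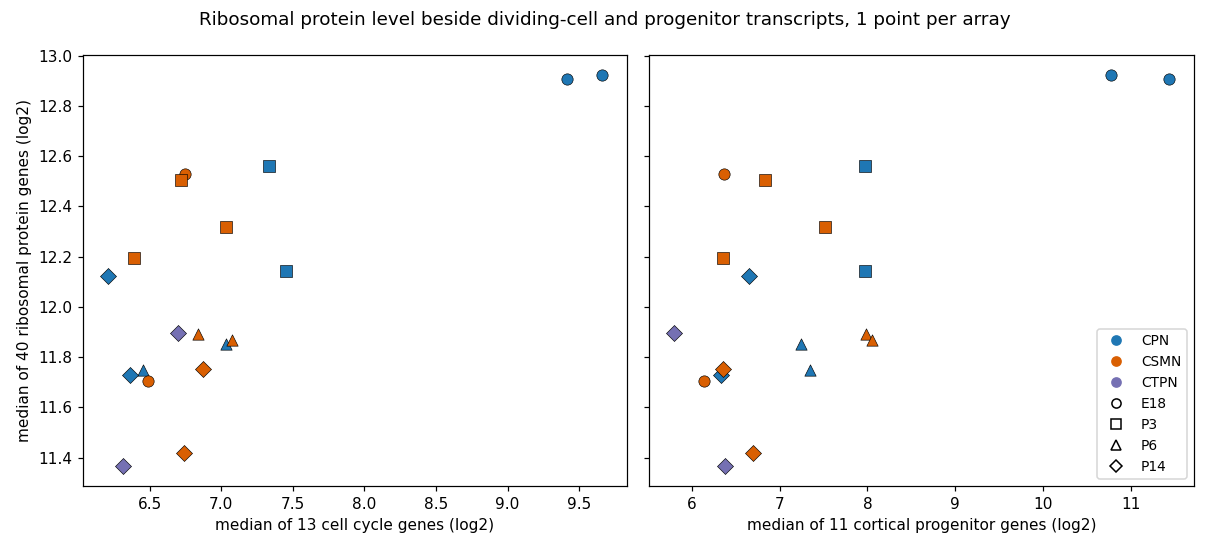
Median of the 40 core genes on each array (vertical, log2) against the median of 13 cell cycle genes (left) and of 11 cortical progenitor genes (right), 1 point per array, colour for the neuron type and shape for the stage. The 2 CPN arrays of E18 stand apart on all 3 measures. Among the other 17 arrays the ribosomal median was 11.37 to 12.56 and the cell cycle median was 6.21 to 7.46.

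After birth no difference between CSMN and CPN was detectable in single genes. By limma, 0 of 47 genes passed at P3, P6 and P14, where 0.874%, 1.07% and 1.39% of all genes passed, and 2, 0 and 3 genes had an unadjusted p under 0.05; with array weights 5 passed at P3, and without replicate 1 of CSMN at P14 6 passed at P14. The medians were -0.01, 0.06 and -0.31. At P14, 44 of 47 genes were lower in CSMN, and every CSMN array was below every CPN array for 17, against 18.4% of all genes. Over the mean of the 4 stages, 4 of 47 genes were lower in CSMN by limma, too few to set apart from the 5.34% of all genes that were. These were Rps27l (-0.62, adjusted p 0.0398), Rps14 (-0.54, adjusted p 0.0271), Rps20 (-0.41, adjusted p 0.0453) and Rpl13a (-0.40, adjusted p 0.0453). Rps14 is a protein of the small subunit platform, and Rpl13a is also known for silencing inflammatory messages. The Rps20 difference was 0.30 when probe sets marked for cross-hybridisation were left out, and that of Rps27l was 0.019 without the E18 arrays. Without the E18 arrays 0 of the 47 passed by limma, where 4.11% of all genes did, and 1 of 47 had an unadjusted p under 0.05, and leaving out single arrays gave 0 to 14 genes, the 14 without replicate 1 of CSMN at P14. The comparisons of CTPN at P14, read beside both other types, gave 0 calls by limma: the median was 0.12 against CSMN, where 0.192% of all genes passed, and -0.20 against CPN, where 1.06% did, and 3 and 2 genes had an unadjusted p under 0.05. Without replicate 1 of CSMN at P14, 3 genes passed against CSMN.

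The 6 paralogs were read beside their parents, and no difference between a paralog and its parent was tested. Rps27l, a close relative of Rps27 that p53 induces, was read from a probe set marked for cross-hybridisation. Its level was 10.33 and 10.77 in CPN at E18, 9.25 and 8.99 at P3, 8.70 and 8.46 at P6, then 8.91 and 8.27 at P14. In CSMN it was 8.52 and 7.53 at E18, 9.40, 8.80 and 8.91 at P3, 8.91 and 9.06 at P6, then 8.80 and 7.86 at P14, and in CTPN 8.38 and 8.37. The CPN pair of E18 lay above the other 17 arrays, which overlapped. It fell in CPN by 1.96 ± 0.35, or 3.89-fold, with an adjusted p of 0.000970, was lower in CSMN than in CPN at E18 by -2.52 ± 0.35 with an adjusted p of 0.000220, and in CSMN its change was 0.31 ± 0.35. The change differed between the types by 2.27 ± 0.50, with an adjusted p of 0.0161, and by -0.17 from P3 to P14, with an adjusted p of 0.899. For Rps27l the first of these differences did not pass when probe sets marked for cross-hybridisation were left out. Its parent Rps27 was read from a dim probe set and differed by -0.18 in CPN and -0.43 in CSMN, neither of which passed. A brighter probe set that names Rps27 beside other symbols differed by -1.17 in CPN (adjusted p 0.0530) and by -1.04 for CSMN minus CPN at E18 (adjusted p 0.0978).

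Rpl22l1, a paralog whose messenger RNA the RPL22 protein represses, did not pass in any comparison. Its values were 11.44 and 11.90 in CPN at E18, 11.09 and 10.94 at P3, 10.87 and 10.67 at P6, then 11.81 and 11.20 at P14, so that one P14 array lay within the E18 range and the other just below it. Its P14 minus E18 difference was -0.16 ± 0.33 in CPN and 0.28 ± 0.33 in CSMN, against -1.47 and -0.74 for Rpl22, a comparison of differences that was not itself tested. Rpl7l1, which acts in large subunit assembly, was at 9.34 and 8.94 in CPN at E18 and 8.15 and 7.26 in CSMN at E18, a difference of -1.43 ± 0.36 with an adjusted p of 0.0182, and it fell in CPN by 1.12 ± 0.36 with an adjusted p of 0.0428. Its parent Rpl7 fell in both types, by 1.10 ± 0.19 in CPN and 0.77 ± 0.19 in CSMN. Rps4l did not pass in any comparison and was uneven, at 8.23 and 9.32 in CPN at E18; its CTPN arrays read 10.05 and 9.48, against 9.14 and 8.33 in CPN and 8.46 and 8.05 in CSMN at P14, so that both CTPN arrays were higher, with adjusted p of 0.374 against CSMN and 0.692 against CPN. Rpl3l, a form known from muscle, and Rpl39l, known from testis, lay below every array median, at 4.75 to 6.35 and 4.25 to 5.32. The call of Rpl39l in CSMN (-0.70, adjusted p 0.0272) therefore rests on values at the dim end of the array, and its parent Rpl39 differed by -0.23 there. Rps19bp1 was at 9.57 and 9.30 in CPN at E18 and 9.90 and 9.51 at P14 and did not pass in any comparison.

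**Figure D5:**
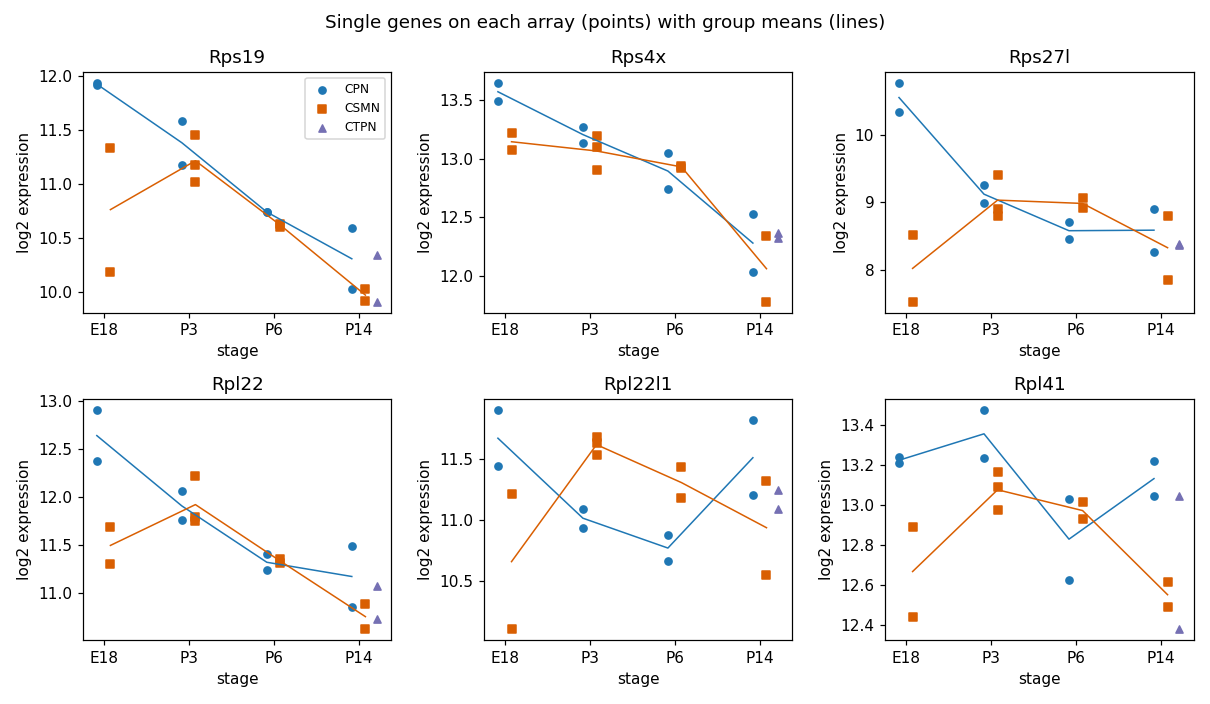
Log2 expression of Rps19, Rps4x, Rps27l, Rpl22, Rpl22l1 and Rpl41 by stage, with points for arrays, lines through group means and CTPN at P14 as triangles. Rps19 and Rps4x are lowest at P14, Rps27l is high only in CPN at E18 (10.33 and 10.77), and Rpl22l1 at P14 in CPN (11.81 and 11.20) stands above its P6 values.

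The 55 probe sets of these genes not used above were fitted together with all 34945 that name 1 gene. At P14 against E18 in CPN, 48 of the 55 were below 0, with 28 called lower and 1 higher, where 7.93% of all probe sets were called lower. In CSMN 49 were below 0, with 11 called lower and 0 higher, where 5.37% were called lower. At E18, 42 were lower in CSMN than in CPN, with 9 called lower and 1 higher, where 7.14% were called lower. Of the 23 genes with several probe sets, all of a gene's probe sets were below 0 for 16 genes in CPN and 17 in CSMN. The family genes outside the rule, read from 26 probe sets with several symbols, gave 18 lower and 0 higher in CPN (median -0.89), 6 lower and 0 higher in CSMN (median -0.39), and 10 lower and 0 higher in CSMN at E18 (median -0.69). Of these, Rpl10, chosen here only as an example, had values of 13.28 and 13.45 in CPN at E18 and 12.62 and 12.22 at P14 and differed by -0.95. Ribosomal proteins that other symbols name moved the same way: Rplp0, the stalk protein, fell by 1.62 ± 0.29 in CPN and by 1.35 ± 0.29 in CSMN (adjusted p 0.000865 and 0.00553), and Rpsa and Rplp2 fell in CPN by 0.86 and 0.80, with Fau not passing.

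The lists of other translation genes are read against the background of the P14 minus E18 comparison, in which 8.98% of all genes fell and 10.2% rose in CPN, and 5.85% fell and 9.27% rose in CSMN. No list was tested as a whole. Of 77 mitochondrial ribosome genes, whose products translate the mitochondrial genome, 7 rose and 1 fell in CPN, with a median of 0.30, and 13 rose and 0 fell in CSMN, with a median of 0.32. Mrps26 rose by 1.13 in CPN, and Mrps14 rose by 1.72 and Mrps34 by 1.55 in CSMN. Of 49 ribosome biogenesis genes, 8 fell and 3 rose in CPN, and 3 fell and 1 rose in CSMN, the latter shares near or below the background. The nucleolar genes Npm1 (-0.95 in CPN and -1.08 in CSMN) and Ebna1bp2, a large subunit assembly factor (-0.93 and -1.08), fell in both, and Rrp1 rose in both, by 0.98 and 1.29. Of 15 RNA polymerase I genes, 2 fell in CPN and 1 in CSMN, and Polr1c, a subunit shared with polymerase III, fell in both, by 0.98 and 0.94.

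Among 9 elongation factor genes the neuronal form rose. Eef1a2, the form of EF-1 alpha that mature neurons and muscle use, was at 10.42 and 10.41 in CPN at E18, 11.80 and 11.66 at P3, 12.04 and 11.77 at P6, then 12.97 and 12.54 at P14. Its arrays thus stood higher at P14 than at any earlier stage of CPN. It rose by 2.34 ± 0.35 in CPN (adjusted p 0.000199) and by 1.84 ± 0.35 in CSMN (adjusted p 0.00251), while the general form Eef1a1 differed by -0.35 and -0.47 and did not pass. Eef1d and Eef1b2, exchange factors for EF-1 alpha, fell in CPN by 1.21 and 0.80. Of 34 initiation factor genes, 3 fell and 1 rose in CPN, and 2 fell and 0 rose in CSMN, shares near or below the background. Pabpc1, the poly(A)-binding protein, fell in CPN by 1.20, Eif3f, a subunit of eIF3, fell in both types (by 0.88 in CSMN), and Eif1ax rose in CPN by 1.88. Of 21 growth regulators, 3 fell and 2 rose in CPN, and 2 fell and 1 rose in CSMN, too few to set apart from the background: Mxd4, an antagonist of MYC, fell in both (-1.26 and -1.31), Mycl fell in CPN (-1.81), and in CSMN Mycn fell (-2.26) and Mxi1 rose (2.08). Of 14 ribosome assembly and growth chaperones, Tpt1 fell in CPN by 0.67, and 0 passed in CSMN by limma.

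As a description, 32 of the 40 core genes had a Pearson correlation above 0.8 with the core median and 2 were below 0.5, Rps16 and Rpl27a. Outside the members, the 3 genes most like the core median were Ercc1 (0.969), a DNA repair endonuclease subunit, and Kazn and Smarcb1 (both 0.966), the last a subunit of the SWI/SNF chromatin remodeller. All are taken over the 9 group means, from the same arrays.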

How the data were processed

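The authors deposited log2 expression values per probe set, made with RMA per the submitters' processing notes (version not given in the sources used here). RNA was amplified in 2 rounds per the labels, which favours 3′ ends. RMA values are relative to the other RNA of an array, and what the tests can detect is limited by the number of arrays. Counts of members by unadjusted p are given without the share of all genes. Such counts need not be particular to the members. Names came from the platform table, which names 34945 probe sets with 1 symbol, 932 with several and 9160 with none, beside 64 controls. A model of 9 group means was fitted to 18193 genes with limma 3.58.1 in R 4.3.3 (10 residual degrees of freedom); n is 2 arrays a group, 3 for CSMN at P3. The fit was tested on simulated data. Of the 47 probe sets, 16 are marked _x_at and 1 _s_at for cross-hybridisation, and retrocopies of ribosomal genes may add signal. Named were the 4 largest passing differences per direction and comparison, paralogs with parents, 6 well known genes of the family fixed by name, the 3 largest passing genes of each of the translation lists, and the 3 most alike genes. Of the 6 well known genes, Rpl5 and Rpl24 are not members. Other genes are said to be named later. Members and lists were chosen with earlier results of these data known. Alternatives covered scaling, probe set choice, the variance model, the stages and each array in turn. Figures used matplotlib 3.10.9 and Python 3.11.15.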

Additional observations from a re-analysis of the deposited data

Results flagged for a closer look

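The P14 minus E18 change of Rps27l differed between CSMN and CPN by 2.265 on the log2 scale, with an adjusted p of 0.0161 by limma. It was singled out because the interaction test between the neuron types passed. Rps27l is read from a probe set marked for cross-hybridisation, and the difference did not pass when such probe sets were left out. The arrays behind it are the CPN pair of E18, at 10.33 and 10.77, and the CSMN pair of E18, at 8.52 and 7.53, and the same CPN arrays carry the high cell cycle and progenitor levels given above, whose part was not tested. The difference did not pass without replicate 2 of CPN at E18, of CPN at P14 or of CSMN at E18.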

How the results depend on the processing

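Counts of the 47 genes that passed in each comparison moved with several choices, and the cause was not tested. For most of these choices the share of all genes called is not given here, so a moved count need not be particular to the members. For P14 minus E18 in CSMN (7) the count was 22 after quantile normalization, 23 after cyclic loess, 11 with an intensity trend or the mean of all probe sets, 19 without E18 (P14 against P3), 5 when the narrow CSMN array of P14 was left out too (chosen after seeing the data), and 0 with array weights or the compared groups fitted alone. For P14 minus E18 in CPN (22) it was 3 without E18 and 6 when that array was left out too. For CSMN minus CPN at E18 (12) it was 2 with array weights or the compared groups alone and 7 without both narrow CSMN arrays, an alternative chosen after seeing the data. For the interaction (1) it was 2 after quantile or cyclic loess scaling, with the mean of all probe sets or without both narrow arrays, and 0 with array weights, the compared groups alone, without E18 or without probe sets marked _x_at or _s_at. For the mean of 4 stages (4) it was 1 with array weights, the compared groups alone or without marked probe sets, 2 among genes above median brightness, with the mean of all probe sets or without both narrow arrays, and 0 without E18. For CSMN minus CPN at P3 (0) it was 5 with array weights, 3 with the compared groups alone and 1 without both narrow arrays. For P3 minus E18 over both types (0) it was 14 after cyclic loess, 5 after quantile normalization, 6 without both narrow arrays, and 1 with array weights, the compared groups alone, the mean of all probe sets or without marked probe sets. For P6 minus P3 (0) it was 5 with array weights, and for P14 minus P6 (4) it was 7 after quantile normalization, 1 with array weights and 0 with the compared groups alone.

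Leaving out single arrays gave 5 to 28 genes for P14 minus E18 in CPN, 5 to 13 in CSMN, 0 to 4 for the interaction, 4 to 25 for CSMN minus CPN at E18, 0 to 6 at P14, 0 to 14 for the mean of 4 stages, 0 to 3 for CTPN minus CSMN, 0 to 3 for P3 minus E18 and 1 to 10 for P14 minus P6. Among single genes that were called, these changed sign: Rps20 was 0.12 for P14 minus E18 in CPN, 0.54 for CSMN minus CPN at E18 and 0.30 for the mean of 4 stages without marked probe sets, and Rps27l was -0.17 for the interaction and 0.019 for the mean of stages without E18 (0.18 when the narrow CSMN array of P14 was also left out). The median over the 47 genes changed sign across single left-out arrays for CSMN minus CPN at P3 (-0.14 to 0.09), CTPN minus CSMN (-0.06 to 0.27) and P3 minus E18 (-0.25 to 0.04).

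Replicate numbers were not used to pair the arrays in the main fit. Of 36 same-numbered pairs 19 correlated above 0.1 (median 0.106, highest 0.593), and 12 of 19 arrays correlated best with their own number. These values do not settle whether arrays of one number share an effect. With the replicate block, 2 genes passed for the interaction and 1 for P3 minus E18, and counts were 26 in CPN, 9 in CSMN and 17 at E18. With 2 arrays a group, small differences are not detectable, and genes read from dim probe sets have only loosely bounded changes.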

Other observations

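Probe sets that list several symbols gave a second reading of 15 members. For 10 of these the several-symbol probe set had the higher mean signal, and its P14 minus E18 difference in CPN was below 0 for all 10, with 4 passing by limma. Rps16, which read 0.07 from its own dim probe set, read -0.35 from the other, and Rps27 read -0.18 and -1.17, with neither passing. Rpl14 read -0.84 and -1.03, and its several-symbol probe set passed in CPN and in CSMN (-0.79). Rps7 read -0.62 and -1.52 in CPN. Rpl27a, whose own probe set was high on one CSMN array of E18, read -0.30 for P14 minus E18 in CSMN from the other. These genes were named after their values were seen.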
